A study of Mus musculus with 8 samples.

Results

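Pre-BII cells that lacked both Aiolos and OBF-1 were compared with pre-BII cells that lacked OBF-1 alone. The genotypes differ in the loss of Aiolos in a cell that already has no OBF-1, and their arrays also differ in the fluidics station used. The comparison used 4 of the 8 arrays of the series, 2 from Aiolos-/-/OBF-1-/- (double-mutant) mice and 2 from OBF-1-/- (single-mutant) mice. It covered every probe set with a mean intensity of 100 or more in either genotype, which were 9575 of 22626 probe sets (42.3%) and stood for 6118 of 12393 gene symbols. Of these, 8990 reached 100 in both genotypes, 328 only in the double mutant and 257 only in the OBF-1 single mutant, and the values closest to the limit were 100.004 inside and 99.9945 outside.

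The other 4 arrays of the series hold wild type and Aiolos-/- pre-BII cells, 2 of each, and were used for the spread between arrays and to ask whether the effect of losing Aiolos was the same when OBF-1 was present. All mice were of a Bl6 background and 7 weeks old, and no treatment is named beyond the extraction of bone marrow. The methods describe cells sorted as B220+ CD25+ from bone marrow pooled over several mice, with an independent pool for each array, so an array hides the spread between mice. The sample labels speak only of bone marrow from 1 deletion mouse and name neither the sort nor the pools. The sorted gate holds large, dividing pre-BII cells and small, resting ones together. With 2 arrays in each genotype the precision of every value is low, and since the arrays are bulk samples, more cells of a type and more RNA per cell cannot be told apart.

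Pre-BII cells have a rearranged immunoglobulin heavy chain and are rearranging their light chain genes. Before a light chain exists, the heavy chain pairs with a surrogate light chain made of λ5 (Igll1) and VpreB (Vpreb1 and Vpreb2), and this pre-B cell receptor, with its signalling partners Cd79a and Cd79b, drives a burst of division and is then shut off. Aiolos (Ikzf3), a DNA-binding relative of Ikaros with zinc fingers, represses or activates genes through chromatin remodelling complexes, and OBF-1 (Pou2af1) is a coactivator that binds DNA together with the octamer factors Oct-1 and Oct-2.

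The genotypes matched their labels where they could be checked. The Pou2af1 intensity was 2720 in wild type and 2638 in Aiolos-/- cells, against 239 in OBF-1-/- and 221 in double-mutant cells, a difference that did not pass (log2 fold change -0.15, limma adjusted p = 0.751). No probe set carried the symbol Ikzf3 alone, so loss of Aiolos mRNA was not analysed here. The markers of the sorted cell were present in both genotypes: Il2ra, which encodes CD25, had a mean of 637 in OBF-1-/- and 664 in double-mutant cells, Ptprc, the gene of B220, had 2141 and 1907, and Rag1, the recombinase gene, had 3042 and 2674. The B cell factor gene Pax5 stayed below 100, at 62.6 and 68.5. Array medians lay between 66.8 and 69.4, and the arrays of one genotype correlated across probe sets on the log2 scale with an r of 0.9961 and 0.9963, against 0.9925 to 0.9935 between the genotypes. Washing used fluidics station 2 for the OBF-1-/- and station 1 for the double-mutant arrays, so station and genotype cannot be told apart in any value of this comparison. The 18 hybridization control probe sets, which detect RNAs spiked into every sample and carry no biology, were higher on the double-mutant arrays by 0.052 to 0.38 on the log2 scale, with a median of 0.21. The 3' to 5' signal ratio of Gapdh, a measure of RNA integrity, was 1.64 and 1.77 on the OBF-1-/- arrays and 1.49 and 1.55 on the double-mutant arrays. That of actin was 1.79 and 2.14 against 1.81 and 1.94, which overlap. The part of the control probe sets and of RNA integrity in the results was not tested. Markers of granulocytes and monocytes were high in both genotypes although the gate should remove those cells: the summed intensity of 16 such genes was 29937 and 34099 on the OBF-1-/- arrays and 30379 and 30921 on the double-mutant arrays.

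Between double-mutant and OBF-1-/- cells 464 of the 9575 probe sets differed (limma with Benjamini-Hochberg adjustment, threshold 0.05), where 2.63% of all probe sets tested differed. Of these, 280 were higher in the double mutant (2.92% of the 9575, where 1.61% of all 22626 probe sets tested were higher) and 184 were lower (1.92%, where 1.03% of all tested were lower). They stood for 222 and 139 gene symbols. Of the 280, 223 reached 100 in both genotypes and 57 in 1 genotype only, and of the 184 these numbers were 162 and 22. A probe set that reached 100 only where it was high is counted because it was high there, so the shares of the 9575 are a description and are not evidence that bright probe sets changed more often. In all 464 the 2 double-mutant arrays lay on one side of the 2 OBF-1-/- arrays, but such a separation alone is common, since 19.4% of all probe sets had both double-mutant arrays above and 24.7% had both below. The median size of a called change was 0.62 on the log2 scale for the higher and 0.59 for the lower probe sets, and 53 of the higher but 15 of the lower ones changed by at least 2-fold. The remaining 9111 probe sets did not pass, and the median log2 fold change of all 9575 was 0.0089.

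**Figure D1:**
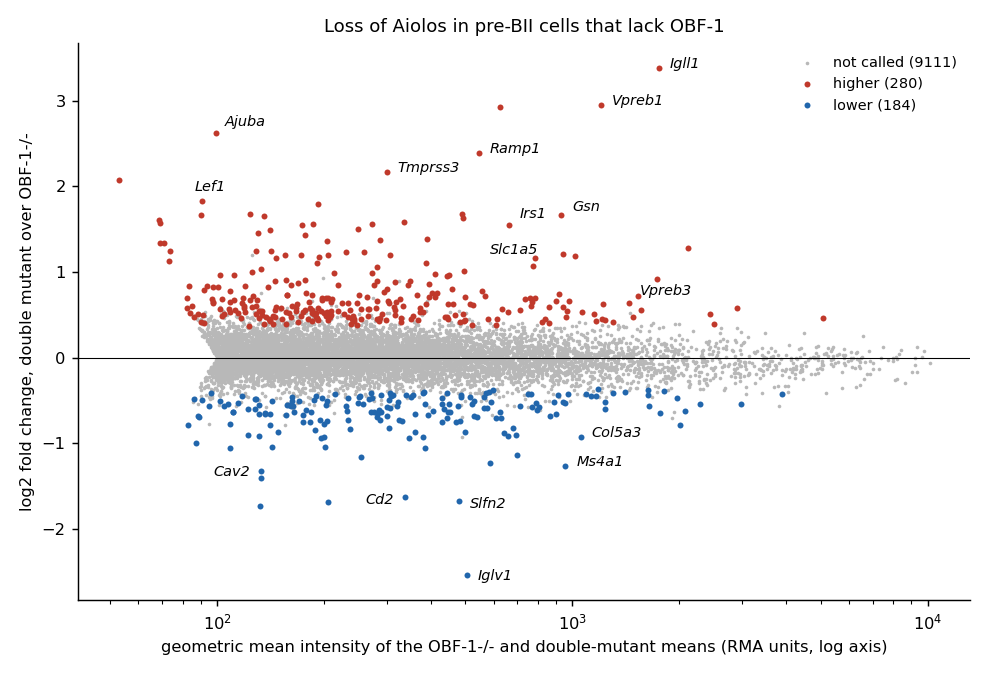
Each point is 1 of the 9575 probe sets, with the geometric mean intensity of the OBF-1-/- and double-mutant means on the x axis (RMA units, log scale) and the log2 fold change of the double mutant over OBF-1-/- on the y axis. Red points were higher (280), blue points lower (184) and grey points did not pass (9111). The surrogate light chain genes Igll1 and Vpreb1 stand at the top and Iglv1 at the bottom.

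How many probe sets passed depended on how the spread between arrays was estimated and on single arrays. Without moderation, which lends each probe set the spread seen over all others, 17 were higher and 8 were lower. Leaving out OBF-1-/- replicate 2 gave 133 higher and 65 lower probe sets, and leaving out double-mutant replicate 1 gave 165 and 62. Only 157 were higher when double-mutant replicate 2 was omitted, and 91 were lower when OBF-1-/- replicate 1 was omitted. Of the 56 genes named as changed in the following paragraphs, 7 passed without moderation (Igll1, Vpreb1, Tmprss3, Ahnak, Utrn, Cd2 and Col5a3), and 32 passed whichever array was left out. The others are named beside their values. Adding an offset of 50 to the intensities made changes of dim genes smaller by more than 1.5 times, to 1.72 for Ajuba, 1.17 for Lef1, 1.06 for Rasa4, 0.92 for Scin and Iigp1, 0.67 for Utrn, 0.26 for Lat, -0.63 for Socs1 and -0.19 for Cr2. Averaging all probe sets of a gene, dim ones included, did so for Igll1 (1.83), Gsn (1.04), Car3 (1.01), Utrn (0.48), Ahnak (0.31), Cav2 (-0.71), Col5a3 (-0.42) and Iglv1 (-1.44), all of which still passed. Without double-mutant replicate 2 the value of Iigp1 was 1.01.

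The surrogate light chain genes made the largest rises. On the OBF-1-/- arrays Igll1, which encodes λ5, had intensities of 538 and 546, and on the double-mutant arrays 5904 and 5408. Vpreb1 went from 461 and 406 to 3242 and 3478. The probe set shared by Vpreb2 and Vpreb1, which cannot separate these near-identical genes, went from 231 and 222 to 1667 and 1773. For all 3 probe sets the double-mutant arrays were far above the OBF-1-/- arrays, with no overlap. The means of Igll1, 542 ± 5.33 and 5656 ± 351 (SD, n = 2 arrays each), differed 10.4-fold, a log2 fold change of 3.38 (standard error 0.11, limma adjusted p = 1.56e-08). Vpreb1 rose 7.75-fold (log2 fold change 2.95, standard error 0.097, limma adjusted p = 1.56e-08) and the shared probe set 7.59-fold. Both genes also rose with OBF-1 present, Igll1 by 3.30 and Vpreb1 by 2.87 on the log2 scale, and the difference between the gains did not pass, being 0.082 for Igll1 (standard error 0.15, limma adjusted p = 0.853) and 0.089 for Vpreb1 (standard error 0.14, limma adjusted p = 0.821). The double-mutant level was the highest of the 4 genotypes, and the OBF-1-/- means of 542 for Igll1 and 434 for Vpreb1 stood above the wild type means of 304 and 193.

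The start regions of the surrogate light chain genes are shown because these genes moved together and moved most. Each line gives the 250 bases before the gene start annotated in RefSeq (build GRCm38.p6), on the strand of the gene. The core letters of Ikaros family sites, GGGAA or its reverse complement TTCCC, are in capitals.
Igll1 (chr16:16863986-16864235, minus strand): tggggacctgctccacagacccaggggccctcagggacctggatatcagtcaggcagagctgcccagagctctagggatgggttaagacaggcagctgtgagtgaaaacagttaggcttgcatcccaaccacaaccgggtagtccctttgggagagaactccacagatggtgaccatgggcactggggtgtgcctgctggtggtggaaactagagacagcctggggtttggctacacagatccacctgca
Vpreb1 (chr16:16869256-16869505, minus strand): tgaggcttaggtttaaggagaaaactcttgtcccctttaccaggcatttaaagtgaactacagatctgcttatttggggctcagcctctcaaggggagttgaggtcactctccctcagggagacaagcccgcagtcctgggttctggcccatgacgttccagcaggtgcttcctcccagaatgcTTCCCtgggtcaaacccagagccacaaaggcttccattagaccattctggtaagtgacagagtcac
Vpreb2 (chr16:17980315-17980564, plus strand): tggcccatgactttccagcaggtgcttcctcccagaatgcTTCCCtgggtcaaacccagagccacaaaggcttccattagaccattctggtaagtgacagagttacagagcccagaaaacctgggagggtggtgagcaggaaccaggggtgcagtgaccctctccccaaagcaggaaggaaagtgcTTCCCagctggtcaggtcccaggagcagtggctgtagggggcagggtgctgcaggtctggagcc
The Igll1 window holds no copy of the core, the Vpreb1 window holds 1, beginning 66 bases before the start, and the Vpreb2 window holds 2, beginning 210 and 64 bases before it. The windows of Vpreb1 and Vpreb2 share an unbroken run of 91 bases that includes a core. That run begins 94 bases before the annotated start of Vpreb1 but 238 bases before that of Vpreb2. The Igll1 window contains the forward primer with which the paper amplified λ5 cDNA, so part of it can be transcribed. The annotated starts therefore do not align the windows, and numbers and positions of the core cannot be compared between these genes. The core is short and common: 55.9% of 27025 promoter windows of the same length held it on either strand, and so did 58.7% of the 5050 windows found for the member genes. A match is a description of the letters and no evidence of binding. A window without these exact letters is likewise no evidence against a site. The paper describes adjacent sites close to the λ5 start that Ikaros and Aiolos can each bind.

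Of the other 4 measured genes on the list for the surrogate light chain and pre-B cell receptor, 1 rose, and it does not encode a chain of the receptor. Vpreb3, which encodes a protein that associates with newly made immunoglobulin chains, had 1108 and 1197 on the OBF-1-/- arrays and 1759 and 1836 on the double-mutant arrays, without overlap. Its log2 fold change was 0.64 (standard error 0.090, limma adjusted p = 0.00257). Vpreb3 differed from Igll1 and Vpreb1 in that its level was far below that of wild type (5909 ± 124, SD, n = 2) in both genotypes, and that its value for loss of Aiolos with OBF-1 present was 0.00165 (limma adjusted p = 0.994); the difference of both changes did not pass (0.64, limma adjusted p = 0.103). The signalling chains Cd79a and Cd79b had log2 fold changes of -0.26 and -0.33 (limma adjusted p = 0.195 and 0.0956, the second 0.0373 with an offset of 50 and 0.017 with a trend and robust fit) and the heavy chain gene Ighm had -0.17 (limma adjusted p = 0.497).

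Top3b, which encodes a topoisomerase, lies next to Vpreb1 in the gene order of the reference, with Igll1 on the other side of Vpreb1. Top3b had 393 and 439 on the OBF-1-/- arrays and 666 and 614 on the double-mutant arrays (log2 fold change 0.62, limma adjusted p = 0.00547), and it did not pass when OBF-1-/- replicate 1 (0.0519) or double-mutant replicate 1 (0.0554) was left out, nor with the mean of its probe sets (0.072). Another Top3b probe set rose by 0.45 (limma adjusted p = 0.0262), while the dimmest, with means of 57.6 and 54.4, had -0.084 and did not pass. Of the 11 genes measured among the 10 on either side of Vpreb1, Igll1 and Top3b were the 2 that passed, both higher. Over all 12393 genes 1.73% were higher. Of the 11, 4 had an unadjusted p under 0.05 in limma. Of the 13 genes measured among the 10 on either side of Ikzf3, limma called none, with 1 at an unadjusted p under 0.05.

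A light chain gene moved the opposite way and made the largest fall. The probe set of Iglv1, a λ light chain variable gene, had 1614 and 874 on the OBF-1-/- arrays and 188 and 223 on the double-mutant arrays. The OBF-1-/- arrays differed widely from each other, yet both were well above the double mutant. The log2 fold change of Iglv1 was -2.54 (standard error 0.21, limma adjusted p = 4.48e-05), a fall to 0.17 of the OBF-1-/- level. The probe set can bind several transcripts, so the signal may not be that of Iglv1 alone, and another Iglv1 probe set had means of 69.4 and 54.6 and did not pass (log2 fold change -0.34, limma adjusted p = 0.16). With OBF-1 present the order was reversed: the first probe set had a change of -0.95 and the other one of -1.85. Of the 8 light chain genes listed, Iglv1 was the 1 measured with a symbol of its own.

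Outside the immunoglobulin genes the largest rises were in genes of quite different roles. Receptors and surface proteins formed one group. Ramp1, an accessory protein that changes which ligand the calcitonin-receptor-like receptor binds, had 215 and 263 on the OBF-1-/- arrays and 1243 and 1243 on the double-mutant arrays. Lgr5, a receptor for R-spondins that amplifies Wnt signals, had 296 and 253 against 906 and 841. Tmprss3, a membrane-bound serine protease, had 140 and 143 against 580 and 692. Sit1, an adaptor in the membrane of lymphocytes, had 108 and 97.7 against 386 and 329, and the tetraspanin gene Tspan31 had 70 and 67.8 against 203 and 239. In each of these genes the double-mutant arrays were higher than both OBF-1-/- arrays, by a margin wider than the distance between arrays of a genotype. Ramp1 rose 5.23-fold (log2 fold change 2.39, standard error 0.14, limma adjusted p = 4.58e-06), and Tmprss3 rose 4.48-fold (2.16, standard error 0.11, limma adjusted p = 1.54e-06). Sit1, Tspan31 and Lgr5 rose by 1.79, 1.68 and 1.67 on the log2 scale (limma adjusted p = 7.6e-06, 2.78e-05 and 2.78e-05). A second Tspan31 probe set, with means of 90 and 131, rose by 0.54 (limma adjusted p = 0.0126), and the mean of all Tspan31 probe sets gave 0.74.

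The window before the start of Ramp1 is given because Ramp1 had the largest rise of the surface proteins, with the same core letters in capitals.
Ramp1 (chr1:91179572-91179821, plus strand): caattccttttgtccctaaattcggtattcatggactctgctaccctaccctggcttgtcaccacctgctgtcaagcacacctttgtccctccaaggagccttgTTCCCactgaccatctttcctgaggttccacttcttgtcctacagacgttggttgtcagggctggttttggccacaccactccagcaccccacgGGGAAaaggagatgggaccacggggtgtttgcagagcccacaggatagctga
It holds 2 copies, which begin 146 and 52 bases before the start, 1 on each strand.

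The other large rises were in genes that act inside the cell, with different roles. Gelsolin (Gsn) and scinderin (Scin), 2 related proteins that cut and cap actin filaments, rose together. Gsn had 516 and 527 on the OBF-1-/- arrays and 1792 and 1532 on the double-mutant arrays, and Scin had 44.8 and 34.1 against 132 and 107. The arrays of neither gene overlapped, and the log2 fold changes were 1.67 for Gsn (standard error 0.11, limma adjusted p = 7.6e-06) and 1.603 for Scin (standard error 0.14, limma adjusted p = 5.67e-05). Another 3 Gsn probe sets rose by 1.20, 1.63 and 1.58 (limma adjusted p = 1.88e-05, 7.6e-06 and 4.58e-06), and 2 below an intensity of 20 did not pass. Ajuba, a LIM-domain scaffold of cell junctions, went from 39.1 and 40.7 to 240 and 250 (log2 fold change 2.62, standard error 0.28, limma adjusted p = 0.000301). Ahnak, a very large scaffold protein, rose by 1.56 (limma adjusted p = 5.88e-06), and Rasa4, which turns Ras off in response to calcium, rose by 1.66 (limma adjusted p = 1.45e-05). Iigp1, an interferon-induced GTPase, had 77.8 and 169 on the double-mutant arrays against 36.9 and 40.3, and its rise of 1.57 (limma adjusted p = 0.0127) did not pass without OBF-1-/- replicate 1 (0.0771) or replicate 2 (0.0743), with an offset of 50 (0.14) or with a trend and robust fit (0.128). Lef1, a transcription factor of the Wnt pathway that is also used by pro-B cells, rose from 49.3 and 47.2 to 166 and 175 (log2 fold change 1.82, standard error 0.12, limma adjusted p = 7.97e-06).

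**Figure D2:**
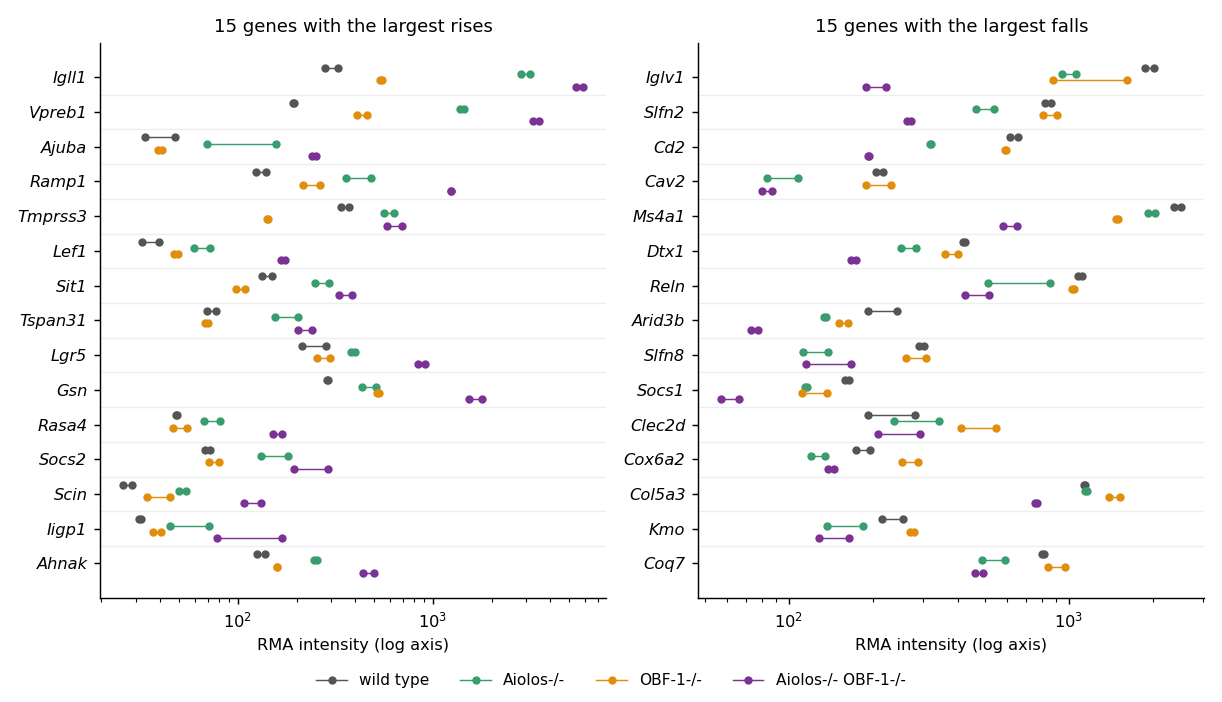
Intensity on every array (RMA units, log axis) of the 15 genes with the largest rises (left) and the 15 with the largest falls (right) between OBF-1-/- and double-mutant pre-BII cells, with 2 points per genotype joined by a line. The orange OBF-1-/- and purple double-mutant points do not overlap in any of these genes. The green Aiolos-/- mean lies on the same side of the black wild type mean for all 15 rises and for 13 of the falls.

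The falls were smaller. After Iglv1 the largest were in Slfn2 and Cd2. Slfn2, a Schlafen protein linked to the resting state of lymphocytes, had 807 and 905 on the OBF-1-/- arrays and 263 and 272 on the double-mutant arrays (log2 fold change -1.67, standard error 0.10, limma adjusted p = 5.45e-06). Its neighbour and relative Slfn8 had 262 and 309 against 115 and 167 (-1.04, limma adjusted p = 0.00466, but 0.0629 without OBF-1-/- replicate 2). The 3 other Schlafen genes measured, Slfn1, Slfn4 and Slfn3, had log2 fold changes of 0.15, 0.17 and -0.11 and did not pass. Cd2, an adhesion molecule that appears on B-lineage cells as they reach the pre-B stage, had 597 and 592 against 192 and 193 (-1.62, standard error 0.088, limma adjusted p = 2.26e-06). For Slfn2, Slfn8 and Cd2 both double-mutant arrays were below both OBF-1-/- arrays, and the arrays of Cd2 agreed within each genotype to a few units.

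The window before the start of Slfn2, the largest fall outside the light chain genes, reads as follows.
Slfn2 (chr11:83064862-83065111, plus strand): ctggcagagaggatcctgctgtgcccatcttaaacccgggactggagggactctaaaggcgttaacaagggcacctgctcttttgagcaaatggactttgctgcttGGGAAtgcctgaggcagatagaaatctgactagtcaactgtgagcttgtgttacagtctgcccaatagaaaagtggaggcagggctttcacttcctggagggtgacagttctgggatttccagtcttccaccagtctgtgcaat
It holds the core once, beginning 144 bases before the start.

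The rest of the 15 largest falls had different roles. Ms4a1, which encodes the B cell surface protein CD20, had 1494 and 1471 on the OBF-1-/- arrays and 580 and 650 on the double-mutant arrays (log2 fold change -1.27, standard error 0.095, limma adjusted p = 2.16e-05), and its other probe set fell by 1.73 (limma adjusted p = 0.000383). Dtx1, a regulator of Notch signalling, had 361 and 400 against 173 and 167 (-1.16, limma adjusted p = 5.05e-05). Arid3b, a DNA-binding protein related to the B cell factor Bright, went from 151 and 162 to 77.3 and 73.2 (-1.06, limma adjusted p = 0.000335). The caveola gene Cav2 fell by 1.32 (limma adjusted p = 0.000227), the collagen gene Col5a3 by 0.93 (0.000156), the muscle-type cytochrome oxidase subunit gene Cox6a2 by 0.94 (0.000549) and the ubiquinone synthesis gene Coq7 by 0.92 (0.000863). Another 3 of the 15 largest falls were lost when an array was left out. The extracellular matrix gene Reln (-1.14, limma adjusted p = 0.00637) did not pass without OBF-1-/- replicate 2 (0.0583) or double-mutant replicate 2 (0.0618), and Kmo, of the kynurenine pathway (-0.93, limma adjusted p = 0.00701), did not pass without OBF-1-/- replicate 2 (0.0668) or double-mutant replicate 1 (0.0756). Clec2d, which encodes a lectin (-0.94, limma adjusted p = 0.0494), did not pass without OBF-1-/- replicate 1 (0.0691) or 2 (0.298), nor without double-mutant replicate 1 (0.0644) or 2 (0.265). The Clec2d call was also lost with arrays centred on their median (0.051), with the replicate number as a block (0.0517), with an offset of 50 (0.173) and with a trend and robust fit (0.174). With the offset Reln (0.0722) and Kmo (0.0569) were lost as well.

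Gene groups were read as counts, with 1 probe set per gene. Over all 12393 genes 1.73% were higher and 1.17% were lower, and the median log2 fold change was -0.018. In the surrogate light chain and pre-B cell receptor list 3 of 6 measured genes (Igll1, Vpreb1 and Vpreb3) were higher and none was lower, with a median of 0.24. Among markers of earlier pro-B and pre-BI cells 3 of 8 were higher and none was lower, also with a median of 0.24. Cd93, a surface protein of early B cells, had 815 and 743 against 1170 and 1291 (log2 fold change 0.66, limma adjusted p = 0.00291). Bst1, the BP-3 antigen, rose by 0.62 (limma adjusted p = 0.0118), which was lost without OBF-1-/- replicate 2 (0.125) or double-mutant replicate 2 (0.0841). Spn, which encodes CD43, rose by 0.58 (limma adjusted p = 0.00944), which was lost without OBF-1-/- replicate 1 (0.0699) or double-mutant replicate 1 (0.0804). The interleukin-7 receptor gene Il7r and the terminal transferase gene Dntt of the same list did not pass (0.29 and 0.18, limma adjusted p = 0.186 and 0.42), and Kit, Flt3 and Erg had values between -0.077 and -0.028.

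Markers of later stages had calls in the other direction: of 18 genes of immature and mature B cells 3 were lower and none was higher, with a median of -0.19. The median was 0.044 over the 12 of these genes that reached 100 in either genotype, of which 2 were lower. Beside Ms4a1 these were Tnfrsf13c, the receptor for the survival factor BAFF, with 1154 and 1106 against 697 and 735 (log2 fold change -0.66, limma adjusted p = 0.00271), and Cr2, the complement receptor CD21. Cr2 was below 100 in both genotypes (45.3 and 33.4), and its fall of 0.44 (limma adjusted p = 0.0263) was lost when any of the 4 compared arrays was left out (limma adjusted p = 0.0867 to 0.156) and with only these 4 fitted (0.0579).

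In the interleukin-7 receptor and STAT5 list, 1 of 15 genes was higher and 2 were lower, with a median of 0.043, and all 3 are feedback or target genes of cytokine receptors. Socs2, a feedback inhibitor of cytokine and growth hormone signals, had 80.1 and 71.1 on the OBF-1-/- arrays and 194 and 289 on the double-mutant arrays (log2 fold change 1.65, standard error 0.18, limma adjusted p = 0.000339). Socs1, the closely related inhibitor of JAK kinases, moved the opposite way, with 111 and 136 against 57.3 and 66.2 (-0.999, standard error 0.11, limma adjusted p = 0.0005). The kinase gene Pim1 fell by 0.70 (limma adjusted p = 0.00767), and another Pim1 probe set fell by 0.66 (limma adjusted p = 0.0242). The first was lost without OBF-1-/- replicate 2 (0.0887) or double-mutant replicate 1 (0.0725). The receptor chain Il7r, the JAK genes Jak1 and Jak3 and the genes Stat5a and Stat5b had log2 fold changes between -0.18 and 0.29, and none passed.

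Genes of cell division were lower as far as they changed. Of 35 measured genes of the cell cycle and of replication 4 were lower and none was higher, with a median of -0.18. The 4 were the mitotic kinase genes Aurkb and Plk1 and the cyclin genes Ccna2 and Ccnb2, with log2 fold changes of -0.45, -0.51, -0.44 and -0.45. All 4 lay close to the threshold (limma adjusted p = 0.0399, 0.0408, 0.0423 and 0.037). None of them passed with OBF-1-/- replicate 2 left out (limma adjusted p = 0.13 for Aurkb, 0.248 for Plk1, 0.144 for Ccna2 and 0.251 for Ccnb2), with double-mutant replicate 1 left out (0.215, 0.224, 0.225 and 0.163), or with either wild type array left out (0.0562 to 0.0625). Aurkb, Ccna2 and Ccnb2 were also lost without either Aiolos-/- array (0.0631, 0.0596 and 0.0584), Aurkb, Ccna2 and Plk1 without OBF-1-/- replicate 1 (0.17, 0.17 and 0.0699), Ccnb2 without double-mutant replicate 2 (0.105), and Aurkb with the mean of its probe sets (0.122). With only the 4 compared arrays fitted none of Aurkb, Plk1, Ccna2 and Ccnb2 passed (0.0924, 0.0676, 0.0897 and 0.0901), and with an offset of 50 Aurkb, Plk1 and Ccna2 did not (0.0541, 0.0843 and 0.054).

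The machinery that rearranges the receptor had no called gene, and that of its signals had 2. In the V(D)J recombination list limma called none of 12 genes (3 at an unadjusted p under 0.05), and the 5 of them that the study discusses, Rag1, Rag2, Dntt, Xrcc6 and Polm, had log2 fold changes of -0.18, 0.097, 0.18, -0.12 and 0.23. In the list of pre-B and B cell receptor signalling 2 of 21 genes were higher and none was lower. Of the 21, 9 had an unadjusted p under 0.05 in limma, and the median was 0.095. Gab1, a docking protein that recruits PI3 kinase, rose by 0.47 (limma adjusted p = 0.0341), and a second Gab1 probe set had a mean of 125 in OBF-1-/- and 229 in double-mutant cells and rose by 0.87 (limma adjusted p = 0.000801). The first was lost when any of the 4 compared arrays was left out (0.112 to 0.147). Inpp5d, the phosphatase SHIP that opposes PI3 kinase, rose by 0.41 (limma adjusted p = 0.0408) and was lost when any array was left out (0.0554 to 0.233) and with only the 4 compared arrays fitted (0.0924). The PI3 kinase adaptor gene Pik3ap1 had the largest value of the list, 0.90, and fell just short of the threshold (limma adjusted p = 0.0516), while it passed without OBF-1-/- replicate 1 (0.00428), after repeated quantile normalization (0.0483), with the replicate number as a block (0.00485) and in the fit on means of probe sets (0.0424). The kinases and adaptors Syk, Btk, Blnk and Prkcb had values of -0.13, -0.067, 0.065 and 0.095 and did not pass. Plcg2, the phospholipase that acts after them, had 0.35 (limma adjusted p = 0.0656), and passed with a trend and robust fit (0.0215), an offset of 50 (0.0234), the mean of its probe sets (0.0317) or repeated quantile normalization (0.0391). The phosphatase gene Ptpn6 had 0.32 and did not pass (limma adjusted p = 0.107). Another Ptpn6 probe set, with means of 614 in OBF-1-/- and 966 in double-mutant cells, rose by 0.65 (limma adjusted p = 0.00427).

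**Figure D3:**
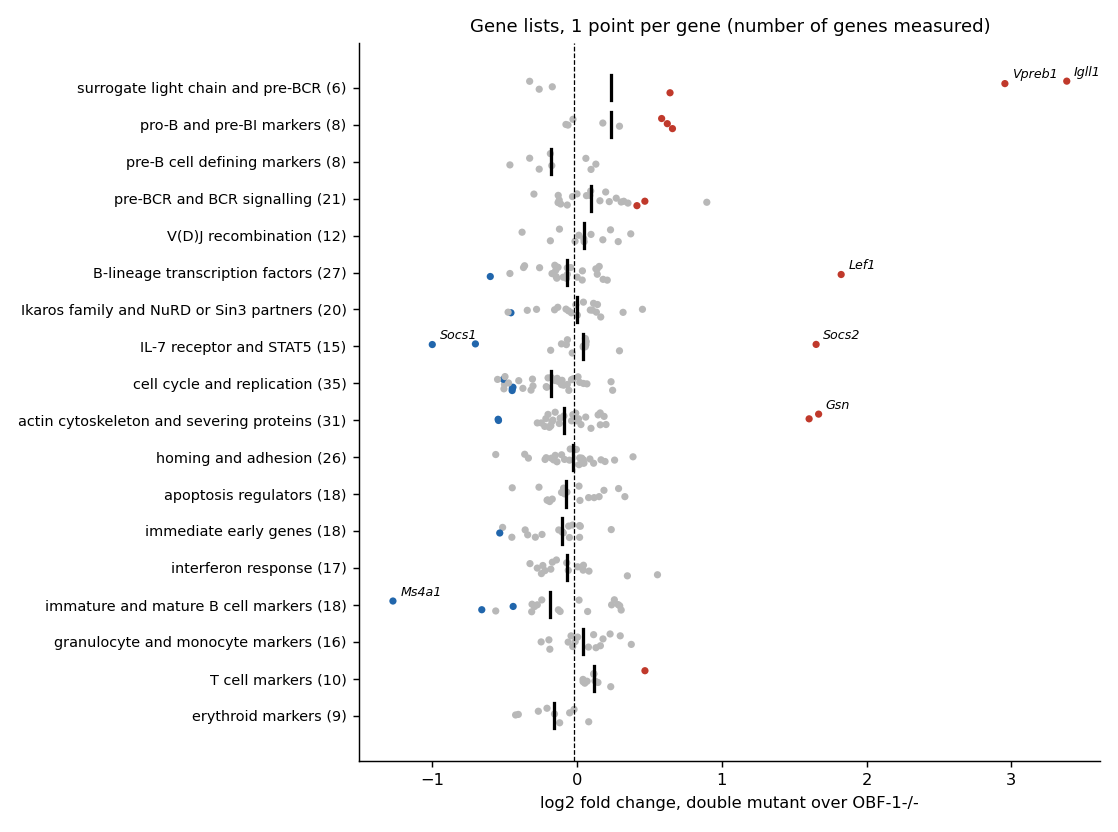
Log2 fold change of the double mutant over OBF-1-/- for every measured gene of 18 gene lists, 1 point per gene, with the number of genes in brackets. Red points were higher and blue points lower at an adjusted p under 0.05, the black bars are the list medians, and the dashed line is the median of all genes, -0.018. The surrogate light chain and pro-B lists have their called genes on the right, the cell cycle and later B cell lists on the left, and the actin and interleukin-7 lists on both sides.

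Among 27 measured transcription factors of the B lineage, Lef1 was higher and Id3 was lower, and the median was -0.072. Id3, an inhibitor of E proteins, had 151 and 150 against 94.8 and 104 (log2 fold change -0.60, limma adjusted p = 0.013) and was lost without OBF-1-/- replicate 1 (0.0694) or 2 (0.0878) or double-mutant replicate 1 (0.104), and with an offset of 50 (0.0536). The early B cell factor gene Ebf1 had -0.46 (limma adjusted p = 0.0615, but 0.0274 with a trend and robust fit, and under the threshold without either Aiolos-/- array), and Irf4 and Irf8, which promote light chain rearrangement, had 0.18 and -0.26. Of 20 measured Ikaros family genes and partners of the NuRD and Sin3 complexes, Mta3 alone changed, by -0.46 (limma adjusted p = 0.0426), with a list median of -0.0028. Mta3 had a second probe set at -0.64 (limma adjusted p = 0.0127), and the first was lost in each fit that left out a wild type (0.0611) or Aiolos-/- array (0.0655), OBF-1-/- replicate 2 (0.281), or double-mutant replicate 1 (0.172) or 2 (0.129). Mta3 was also lost with an offset of 50 (0.0722) and with only the 4 compared arrays fitted (0.0953). Ikzf1, which encodes Ikaros, had 0.45 (limma adjusted p = 0.101), and passed with the replicate number as a block (0.0375).

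The actin list had Gsn and Scin higher and Coro1a and Evl lower among 31 genes, with a median of -0.091. Coro1a, the coronin of blood cells, had 2755 and 2745 against 1786 and 1997 (log2 fold change -0.54, limma adjusted p = 0.0189), and its other probe sets fell by 0.64 and 0.54 (limma adjusted p = 0.00198 and 0.0434). Evl, which promotes actin filament growth, fell by 0.54 (limma adjusted p = 0.0127), while its other probe set had -0.31 and did not pass. Coro1a and Evl were lost when OBF-1-/- replicate 1 (0.0845 and 0.0724), OBF-1-/- replicate 2 (0.114 and 0.0776) or double-mutant replicate 1 (0.137 and 0.101) was left out.

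Among 18 immediate early genes 1 was lower, Dusp2, a phosphatase of MAP kinases (log2 fold change -0.53, limma adjusted p = 0.0203), which was lost without OBF-1-/- replicate 1 (0.0524) or 2 (0.155) or double-mutant replicate 1 (0.144). None of 26 homing and adhesion genes, 18 apoptosis regulators and 17 interferon response genes was called by limma (5, 4 and 4 at an unadjusted p under 0.05), and Iigp1 was not on the interferon list. S100a10, a partner of annexin A2, fell from 1564 and 1402 to 1000 and 1071 (-0.52, limma adjusted p = 0.0192) and was lost without OBF-1-/- replicate 1 (0.119) or double-mutant replicate 1 (0.125). A second S100a10 probe set, with means of 649 and 486, had -0.41 and did not pass (limma adjusted p = 0.115). Of the other genes that the study names, Myl4, Kcnn4, Cdc37 and Ms4a6d had -0.17, 0.013, 0.061 and 0.11 and did not pass. Myl4 was already low in both genotypes, with means of 114 in OBF-1-/- and 102 in double-mutant cells against 1816 in wild type. Ms4a6d was under 100 in both (19.1 and 20.6).

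Markers of cells outside the gate gave 1 call. None of 16 granulocyte and monocyte markers passed in limma (4 at an unadjusted p under 0.05), with a median of 0.042. S100a9, the most abundant, had means of 7228 and 6317, the myeloperoxidase gene Mpo 1110 and 1428, and the integrin gene Itgam, the lowest, 35.5 and 38.2. With an offset of 50 S100a9 passed as lower (limma adjusted p = 0.0418). Of 10 T cell markers Lat was higher, from 58.3 and 51.8 to 78.1 and 73.9 (log2 fold change 0.47, limma adjusted p = 0.0263), a call lost in each fit that left out OBF-1-/- replicate 2 (0.202) or double-mutant replicate 1 (0.149) or 2 (0.0667) or used only the 4 compared arrays (0.0629), while Cd3g was at 15.2 and 16.6. None of 9 erythroid, 6 plasma cell, 7 megakaryocyte, 10 stroma or 10 natural killer, dendritic and basophil markers passed in limma (1, 1, 1, 0 and 1 at an unadjusted p under 0.05). The erythroid sum was 2955 and 3667 on the OBF-1-/- arrays and 2669 and 2944 on the double-mutant arrays.

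The same loss of Aiolos can be read in cells that have OBF-1, as Aiolos-/- against wild type. This comparison shares no array with the first, but it runs between the same fluidics stations, and its 18 spiked control probe sets had a median log2 change of 0.23, so what the stations share would appear in both. Of the 280 probe sets higher without OBF-1, 252 (90.0%) were also above 0 with OBF-1, where 42.4% of all 9575 probe sets were above 0. Of the 184 lower ones, 178 (96.7%) were below 0, where 57.6% of all were. Fewer passed in both: 73 of the 280 (26.1%) were also higher with OBF-1, which is 66.4% of the 110 that were higher there, where 0.831% of all probe sets tested were higher. Likewise 66 of the 184 (35.9%) were also lower, which is 38.4% of the 172 that were lower there, where 1.01% of all tested were.

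How large the changes were with and without OBF-1 depended on which comparison chose the probe sets. A set chosen for its change in one comparison tends to be larger there, so both choices are given. The 280 probe sets higher without OBF-1 had a median log2 fold change of 0.62 there and 0.28 with OBF-1, and the 110 higher with OBF-1 had medians of 0.60 with it and 0.59 without it. The 184 lower without OBF-1 had -0.59 there and -0.42 with OBF-1, and the 172 lower with OBF-1 had -0.60 with it and -0.40 without it. Among the 15 largest rises without OBF-1, 14 passed as higher with OBF-1, Iigp1 being the exception (0.84, limma adjusted p = 0.146), and among the 15 largest falls 9 passed as lower.

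**Figure D4:**
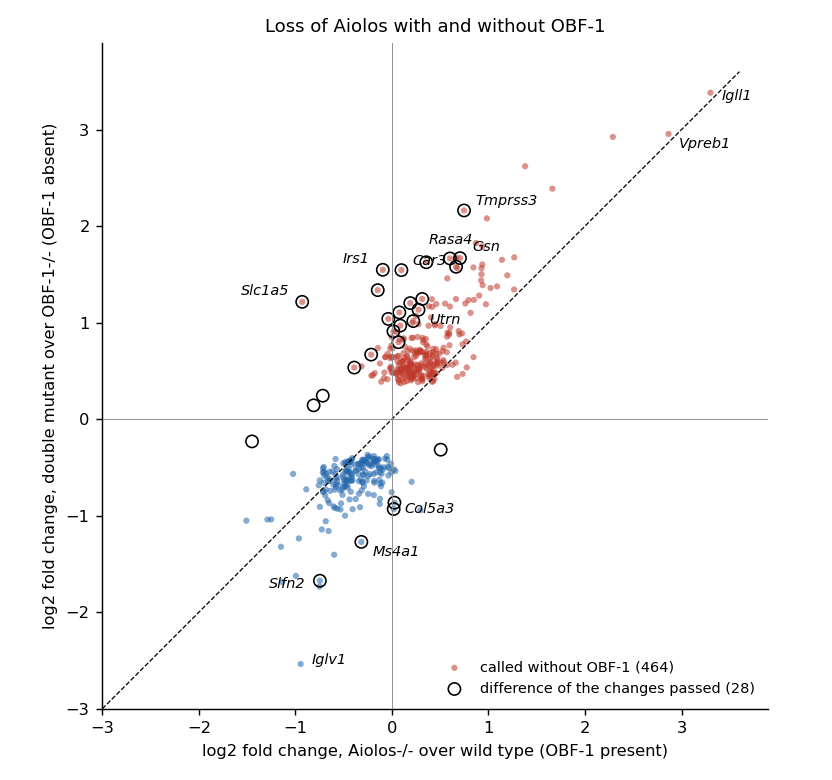
Log2 fold change for loss of Aiolos with OBF-1 present (x axis, Aiolos-/- over wild type) and absent (y axis, double mutant over OBF-1-/-), for the 464 probe sets that passed without OBF-1 (red higher, blue lower). Circles mark the 28 probe sets whose change differed with and without OBF-1, and the dashed line marks equal change. Igll1 lies near the line, while Slc1a5 lies on opposite sides of 0 on the axes.

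Whether the effect of Aiolos depended on OBF-1 was tested as the difference of the 2 changes. It passed for 28 of the 9575 probe sets, from 22 genes, where 0.186% of all tested passed. Of these, 24 were among the 464 that changed without OBF-1, 20 of them higher and 4 lower, and 18 of the 24 did not pass with OBF-1. In all 24 the change was larger in size without OBF-1, which their choice by that comparison nearly fixes. The other 4, named after their values were seen, were Vsir, H1f2, Spg21 and Banp, which passed with OBF-1 (log2 fold changes of 0.51, -1.45, -0.81 and -0.72) and not without it (-0.32, -0.23, 0.14 and 0.24). This count was the least stable: it was 10 with an offset of 50 added to the intensities, 0 without moderation (861 at an unadjusted p under 0.05 in limma), 7 and 8 when wild type replicate 1 or 2 was left out, 6 and 12 for OBF-1-/- replicate 1 or 2, 13 for Aiolos-/- replicate 1, and 17 and 12 for double-mutant replicate 1 or 2. Of the 11 named genes that passed, Slc1a5, Irs1, Car3 and Tmprss3 passed whichever array was left out, but Irs1 (limma adjusted p = 0.102) and Tmprss3 (0.0875) did not pass with the offset of 50. Slc1a5 and Car3 passed under every alternative other than the fit without moderation.

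Slc1a5, which encodes a transporter of glutamine and other neutral amino acids, had the smallest p and went in opposite directions. It had 2083 and 1660 in wild type, 986 and 967 in Aiolos-/-, 653 and 577 in OBF-1-/- and 1327 and 1532 in double-mutant cells. Wild type arrays were the highest and OBF-1-/- arrays the lowest, and the double-mutant arrays lay between wild type and Aiolos-/-, with no overlap between any of the genotypes. The log2 fold change of Slc1a5 was -0.93 with OBF-1 (limma adjusted p = 0.00467) and 1.22 without it (standard error 0.12, limma adjusted p = 0.000227), a difference of 2.14 (standard error 0.17, limma adjusted p = 0.000517). It was the 1 probe set of the 464 that passed in opposite directions.

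In Irs1, Car3 and Utrn the double-mutant arrays stood above all others. Irs1, an adaptor of the insulin and insulin-like growth factor receptors, had between 381 and 443 on all 6 arrays of the other genotypes and 967 and 1307 on the double-mutant arrays. Its log2 fold change was 1.55 without and -0.095 with OBF-1 (difference 1.64, standard error 0.18, limma adjusted p = 0.00421). Car3, a carbonic anhydrase, had 104 and 99.2 in OBF-1-/- and 302 and 292 in double-mutant cells, while wild type and Aiolos-/- arrays lay between 47.6 and 60 (difference 1.45, limma adjusted p = 0.00421). Utrn, the utrophin gene, had 50.7 and 48 against 107 and 110 (log2 fold change 1.13, limma adjusted p = 3.27e-05), with 52.3 to 67.2 on the other arrays (difference 0.86, limma adjusted p = 0.0235).

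**Figure D5:**
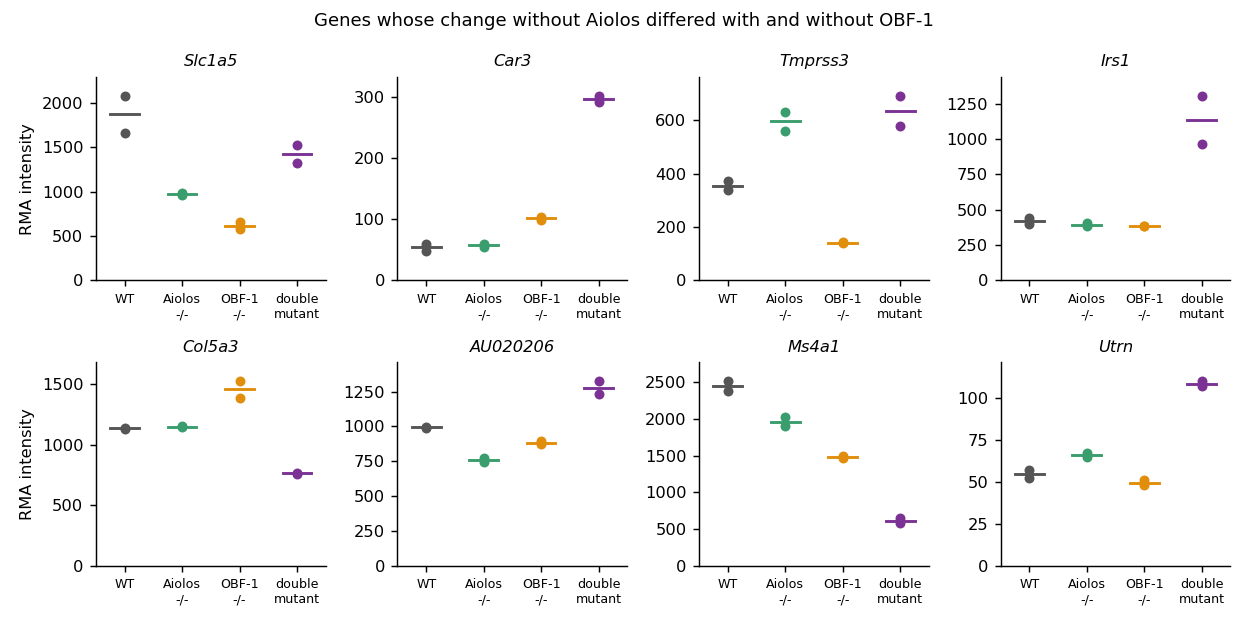
Intensity on every array (RMA units, linear axis from 0) in the 4 genotypes for the 8 genes with the smallest p for the difference between the changes; points are arrays and bars are means of 2. Slc1a5 falls from wild type to Aiolos-/- and rises from OBF-1-/- to the double mutant, and Irs1 is high in the double mutant alone.

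Tmprss3 and Gsn rose in both settings but more without OBF-1. Tmprss3 was lowest in OBF-1-/- cells (142 ± 1.69, SD, n = 2, against 354 ± 24.4 in wild type) and reached a like level in Aiolos-/- (595 ± 51) and in double-mutant cells (636 ± 79.5), so its log2 fold change was 0.75 with and 2.16 without OBF-1 (difference 1.42, limma adjusted p = 0.00421). Gsn rose by 0.71 with and 1.67 without OBF-1 (difference 0.96, limma adjusted p = 0.0284), and 3 other Gsn probe sets passed with differences of 1.01, 1.27 and 0.91. The paper counts Ramp1 and Lgr5 (Gpr49) with Gsn as synergistically raised. Ramp1 rose by 1.66 with and 2.39 without OBF-1, and Lgr5 by 0.67 and 1.67. Their differences of 0.73 and 1.00 did not pass (limma adjusted p = 0.26 and 0.0743). On the log2 scale this asks for more than the product of the separate effects, while the paper's figure shows raw scores. The Ramp1 means were 132 in wild type, 422 in Aiolos-/-, 239 in OBF-1-/- and 1243 in double-mutant cells. Those of Lgr5 were 247, 389, 275 and 873 in the same order. Synergy on the unlogged scale was not tested, so the paper's count is not contradicted here. Rasa4 rose by 0.60 with and 1.66 without OBF-1 (difference 1.06, limma adjusted p = 0.0259). AU020206 had -0.39 with and 0.53 without OBF-1 (difference 0.92, limma adjusted p = 0.0151), and its rise without OBF-1 (limma adjusted p = 0.00756) was lost without OBF-1-/- replicate 2 (0.0692) or double-mutant replicate 2 (0.0529).

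Of the genes that fell, Ms4a1, Col5a3 and Slfn2 fell more without OBF-1. Ms4a1 had log2 fold changes of -0.32 with and -1.27 without OBF-1 (difference -0.95, limma adjusted p = 0.0177), and Slfn2 had -0.75 and -1.67 (difference -0.93, limma adjusted p = 0.0259). Col5a3, for which wild type and Aiolos-/- arrays lay between 1134 and 1155, went from 1527 and 1387 in OBF-1-/- to 770 and 756 in double-mutant cells (difference -0.95, limma adjusted p = 0.0151). For Utrn, Gsn, Rasa4, AU020206, Ms4a1, Col5a3 and Slfn2 the difference was lost without at least 1 array, with limma adjusted p up to 0.132 for Utrn, 0.142 for Gsn and Rasa4, 0.083 for AU020206, 0.0972 for Ms4a1, 0.0787 for Col5a3 and 0.133 for Slfn2. With an offset of 50 the difference was also lost for Utrn and Ms4a1 (0.0552 each) and for Gsn, Rasa4 and Slfn2 (0.125 each), and that of Gsn after repeated quantile normalization (0.0622). Tsc22d1, a regulator of transcription that was picked after its values were seen, passed on 3 probe sets, with rises of 1.02, 1.25 and 1.11 without OBF-1 and differences of 0.79, 0.93 and 1.03.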

How the data were processed

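Expression was measured on MOE430A GeneChips. The authors computed an intensity per probe set with RMA, which corrects background, equalizes the distributions of the arrays and summarises the probes of a set, and deposited it without a log. No version of RMA is given in the labels, and the genome build used for annotation was not given in the sources used here. Of 22690 probe sets, 64 AFFX controls were left out. For the rest, limma 3.58.1 (R 4.3.3) was run on log2 intensity over all 8 arrays, estimating 1 mean for each genotype; variances were moderated with 7.69 prior degrees of freedom beside 4 of the residuals, and p-values were adjusted over 22626 probe sets. Errors are standard errors of the log2 fold change, or SDs over 2 arrays. Probe sets were named from the platform annotation (20380 with 1 symbol, 691 with several, 1555 with none, 20351 matched to RefSeq), and each gene was read from its probe set with the highest mean over the 8 arrays. The genes named were the 15 largest rises and falls, up to 5 genes of each list by p, the genes the paper names and the 8 with the smallest p for the difference between the changes; Slfn1, Slfn3, Slfn4, Tsc22d1 and the other members given for the lists were named after their values were seen. The members and lists were chosen with earlier results of these data known. The 24 lists also include pre-B cell defining markers (0 of 8 called by limma, 3 at an unadjusted p under 0.05, median -0.18) and sex-linked genes (0 of 4 called, 1 at an unadjusted p under 0.05). P-values measure only the spread between these arrays. Promoter windows come from RefSeq GRCm38.p6 and were checked for strand with 1683 overlapping windows on opposite strands, all of which matched; shares of called genes with the core are not given, since fewer than 80% of these genes had a window (79.7% of higher, 77.7% of lower). The fit was also run on simulated arrays with independent normal noise and no effect of station or replicate number. That run cannot speak to such effects in the real arrays. Ikzf3, Lck and Lyn have no probe set with that symbol alone and were not analysed here.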

Additional observations from a re-analysis of the deposited data

Results flagged for a closer look

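For 11 named genes the change on loss of Aiolos differed with and without OBF-1 in limma at an adjusted p under 0.05. The change in double-mutant against OBF-1-/- cells minus that in Aiolos-/- against wild type cells was 2.14 for Slc1a5, 1.64 for Irs1, 1.45 for Car3, 1.42 for Tmprss3, 1.06 for Rasa4, 0.96 for Gsn, 0.92 for AU020206 and 0.86 for Utrn on the log2 scale. It was -0.95 for Ms4a1, -0.95 for Col5a3 and -0.93 for Slfn2. Each rests on 2 arrays per genotype, and none of the 11 passed without moderation of variances. Both changes cross the same 2 fluidics stations, so a station effect equal in both on the log2 scale would cancel in their difference. An unequal one would not, and neither was tested.

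The 18 hybridization controls, which the comparisons leave out, were higher on the double-mutant than on the OBF-1-/- arrays, with a median log2 difference of 0.207. Their part in the results was not tested.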

How the results depend on the processing

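The counts of 280 higher, 184 lower and 28 differing probe sets stayed within 1.5 times under repeated quantile normalization, centring of the arrays, a minimum over both genotypes, no intensity filter and an upper limit on intensity. They moved further as follows. With p adjusted over the filtered probe sets 277 were lower, and with only the 4 compared arrays in the fit 119 were lower. Without moderation 17 were higher, 8 were lower and 0 differed (limma; 861 of the latter at an unadjusted p under 0.05). At a minimum of 2-fold the counts were 53, 15 and 11. With a trend and robust fit 43 differed, and with an offset of 50 there were 10. Leaving out 1 array gave 133 to 244 higher, 62 to 174 lower and 6 to 19 differing probe sets. With the replicate number as a block 310 were higher, 204 lower and 34 differed, and it ended the call of Clec2d and gave calls for Ikzf1 and Pik3ap1. Whether the numbers mark a shared batch is not given in the labels. The correlation between deviations of same-numbered arrays ran from -0.064 to 0.19 over the 6 pairs of genotypes and was above 0.1 in 3 of them, and replicate 1 had lower 3' to 5' ratios of actin and Gapdh than replicate 2 in all 4 genotypes, so an effect shared by number was neither shown nor excluded. Called list genes numbered 20, or 27 when the probe sets of a gene were averaged.

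All 67 called values of named genes kept their direction under every alternative, and 7 were called under every one. Of the 56 genes called between double-mutant and OBF-1-/- cells, 42 passed under all alternatives other than leaving out an array or moderation; of the 11 differences, 4 did (Slc1a5, Car3, AU020206 and Col5a3). The sign turned in values that did not pass: Kcnn4 was -0.016 after quantile normalization and -0.0095 with the mean of its probe sets, and leaving out 1 array gave -0.17 to 0.19 for Kcnn4, -0.17 to 0.37 for Rag2 (-0.022 without OBF-1-/- replicate 2), -0.022 to 0.14 for Cdc37 and -0.49 to 0.19 for Pou2af1. The causes were not tested. No detection calls were used, so values under 100 have no check against background.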
